A study of Mus musculus with 18 samples.

Results

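The transcripts of 39 genes of DNA synthesis and cell division were followed in RNA from mouse dorsal root ganglia, which hold the sensory neurons that supply skin, muscle and joints. They were taken as a list of symbols and matched by Ensembl gene identifier, and all 39 were among the 21288 genes of the count table and among the 19010 genes tested. Mice were wild type (WT) or importin alpha3 knockout (KO), lacking the product of Kpna4, which carries proteins into the nucleus. The 18 libraries comprised 8 from naive mice (4 of each genotype), 6 taken 7 d after spared nerve injury (SNI, 3 of each genotype) and 4 taken 2.5 months after SNI (3 KO and 1 WT). SNI is an operation in which some branches of the sciatic nerve are cut and another is spared. The labels used here name no group with surgery alone, no age or sex, no promoter or cell type in which the deletion acts, and no list of which ganglia were taken, so effects of surgery or age cannot be told apart from those of injury. They do not state that each library came from its own mouse, and p-values therefore measure the spread between these libraries.

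A cell that divides first licenses its replication origins with the Mcm helicase and copies its DNA during S phase, then condenses its chromosomes and pulls them apart on a microtubule spindle in mitosis. Transcription of S phase genes follows the E2F factors, while genes of mitosis are held down in resting cells by the DREAM complex, which binds CHR elements. CCAAT boxes in the same promoters are bound by the activator NF-Y. Sensory neurons are postmitotic, and the division reported in ganglia after nerve injury is that of satellite glia, Schwann cells, macrophages and other non-neuronal cells.

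Total counts were 18634506 to 21585680 per naive library, 12565448 to 14157742 at 7 d and 15501075 to 19283086 at 2.5 months, so depth differed with time after injury. Any difference in collection or sequencing between these times cannot be told apart from injury. Kpna4 stood at 89.6 to 136 CPM, the usual depth-scaled count, computed on TMM-scaled library sizes, in the 8 WT libraries and at 1.01 to 5.63 CPM in the 10 KO libraries, as labelled. Defining markers of the labelled tissue were present in every library. The 12 sensory neuron markers summed to 13176 to 24897 CPM and the 7 satellite glia markers to 906 to 1621 CPM over all libraries. In bulk RNA, fewer cells of a type and less RNA per cell cannot be told apart.

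The proliferation genes were weakly transcribed in ganglia. Their mean levels over the 18 libraries ran from 0.468 CPM for Ccnb1, the gene of cyclin B1, to 19.0 CPM for Pcna, the sliding clamp of DNA polymerases. The median was 3.19 CPM against 11.3 CPM over all genes tested, and 28 of the 39 lay under 5 CPM. None had a count of 0 in any library. Per kilobase of merged exons, the order in naive ganglia was led by genes of S phase. Pcna stood at 8.12 CPM per kb (range 7.51 to 8.70 over the 8 naive libraries), the helicase subunit Mcm4 at 4.58 (3.94 to 5.42) and its partner Mcm6 at 2.36 (1.94 to 2.72). These first ranks did not overlap, whereas from Mcm6 downwards each gene overlapped the next in its range of naive levels. Aurka, the kinase of the spindle poles, came next at 2.15 CPM per kb. Mki67, which coats mitotic chromosomes and is the usual marker of dividing cells, was at 1.20 CPM per kb, ranging from 0.601 to 2.18. Top2a, which untangles sister chromosomes, was at 0.478 CPM per kb. The lowest ranks belonged to Cenpe, a kinetochore motor, at 0.195 CPM per kb, to Ccnb1 at 0.131 and to the kinetochore protein Cenpf at 0.0872.

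Within naive ganglia many members were high in the same libraries, as the heat map of all members shows. In ko_40, 28 of the 39 members had their highest level among the 4 naive KO libraries, and in wt_44 25 of 39 had their highest among the 4 naive WT libraries. The median ratio to the mean of the other libraries of the group was 1.48 in ko_40 and 1.36 in wt_44. The gap differed between members of either role. Ccna2, the gene of cyclin A2, stood 2.43-fold and 1.50-fold above the other libraries in ko_40 and wt_44, and Ube2c, a ubiquitin carrier that helps cells leave mitosis, 2.57-fold and 1.65-fold. Mki67 was 2.41-fold and 2.11-fold above them, and the S phase gene Rrm2 2.95-fold and 1.43-fold. Among mitotic members Aurka was at 0.940 and 1.01 times and Tpx2 at 0.919 and 1.01 times the mean of the others. Pcna was at 0.965 and 0.960 times their mean, and Mcm2 at 1.04 and 0.984 times. The low library was wt_48, where 26 of the 39 members had their lowest naive WT level. How many of all genes were highest or lowest in these libraries was not counted. These counts therefore cannot be called particular to the proliferation genes.

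**Figure D1:**
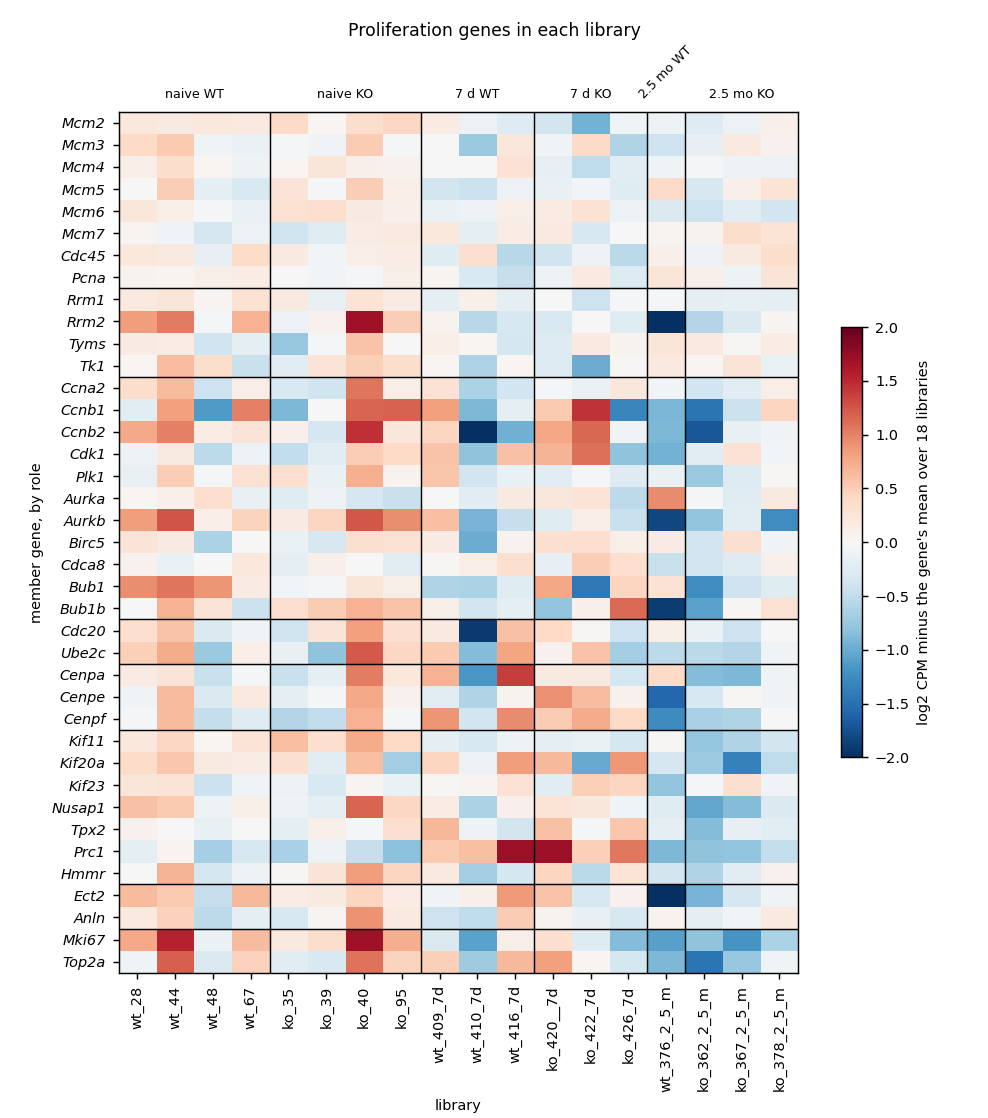
Each row is a member gene, ordered by role, and each column a library. Colour gives log2 CPM minus the mean of that gene over the 18 libraries, limited to the range from -2 to 2. Among the naive columns ko_40 and wt_44 are red over many rows, the Prc1 row is red in the 6 columns of 7 d, and most mitotic rows are blue in the columns of 2.5 months.

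Marker sums of several cell types also stood apart in these libraries. The 14 neutrophil markers, mostly granule protein genes made by developing cells but also S100a8, S100a9 and the receptor gene Cxcr2, summed to 801 CPM in ko_40 and 1196 CPM in wt_44, against 256 to 599 CPM in the other 6 naive libraries. The red cell precursor markers summed to 826 CPM in ko_40, while wt_44 at 509 CPM was level with wt_28 at 507 CPM, and the others held 244 to 462 CPM. Macrophage markers summed to 215 CPM in ko_40 and 152 CPM in wt_44, against 61.6 to 109 CPM. The library ko_40 also had the lowest sensory neuron sum of all 18, at 13176 CPM against 18599 to 21396 CPM in the other naive libraries. Its sums of satellite glia (1621 CPM), endothelial and mural (532 CPM) and fibroblast markers (1148 CPM) were the highest of all 18. In wt_44 these sums lay within the range of the other naive libraries. Lymphocyte markers were near the floor throughout, at 3.38 to 13.7 CPM for 10 genes, with Cd3d at a count of 0 in 5 libraries. Developing neutrophils and red cell precursors divide in bone marrow, and the part of these or the other cell types in the level of the proliferation genes was not tested.

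**Figure D2:**
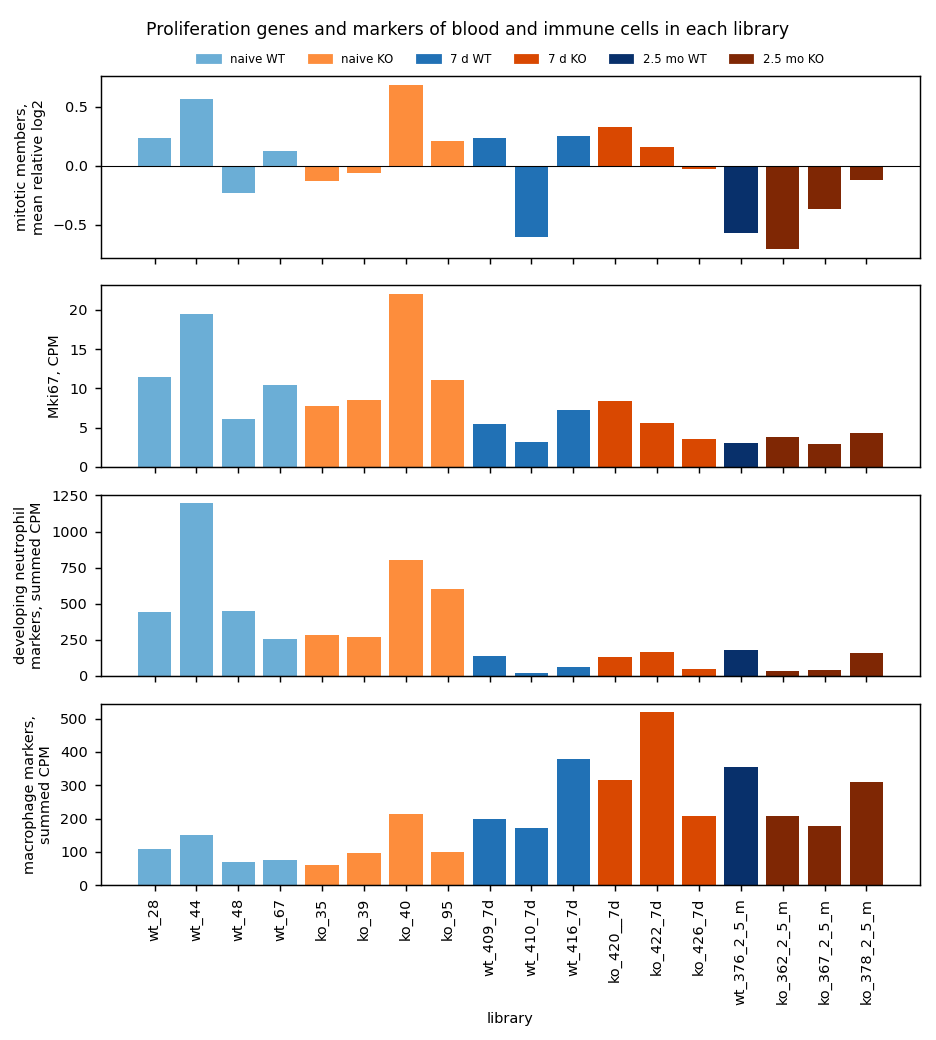
Bars give, for each library, the mean log2 level of the 27 mitotic members relative to their means over all libraries, the Mki67 level in CPM, and the summed CPM of 14 developing neutrophil and 15 macrophage markers. Among naive libraries ko_40 and wt_44 are the highest in all 4 panels, and every library after SNI has a lower neutrophil sum (20.8 to 183 CPM) than any naive library (256 to 1196 CPM).

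Promoter windows of the members were examined as a description. A link between motifs and the levels in any library was not tested. RefSeq (GRCm38.p6) gave a window of 250 bases before to 50 bases after the start for 34 of the 39 members, and not for Mcm4, Ccna2, Aurkb, Kif20a and Tpx2. Motifs were counted on both strands, each on its own, so that matches of different motifs may overlap. A CHR element (TTTGAA or TTCGAA) was present in 22 of 34 members, or 64.7%, against 19.4% of the windows of 27025 genes. It was in 19 of 23 mitotic windows and in 3 of 11 S phase windows. A CCAAT box (CCAAT) was in 29 of 34, or 85.3%, against 37.9%. An E2F element (TTTGGCGC or TTTGCCGC or TTTCGCGC or TTTCCCGC) was in 5 of 34, or 14.7%, against 2.32%, and 4 of these 5 were S phase genes. The shares describe letters and carry no test. The windows below belong to the 3 mitotic and 2 replication members with the smallest adjusted p at 7 d against naive. Capitals mark matches to these motifs on either strand (ATTGG is CCAAT and TTCAAA is TTTGAA, read on the other strand), and each line runs 5′ to 3′ along the strand of the gene. Prc1 lies at chr7:80294201-80294500 on the plus strand, Kif11 at chr19:37376132-37376431 on the plus strand, Mki67 at chr7:135716330-135716629 on the minus strand, Mcm2 at chr6:88898731-88899030 on the minus strand and Rrm2 at chr12:24708004-24708303 on the plus strand.
Prc1: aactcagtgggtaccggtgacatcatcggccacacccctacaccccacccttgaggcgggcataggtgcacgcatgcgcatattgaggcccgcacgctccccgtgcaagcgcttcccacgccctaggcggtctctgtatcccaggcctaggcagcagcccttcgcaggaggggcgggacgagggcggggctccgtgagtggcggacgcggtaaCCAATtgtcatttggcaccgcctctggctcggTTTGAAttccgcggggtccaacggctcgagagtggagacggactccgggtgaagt
Kif11: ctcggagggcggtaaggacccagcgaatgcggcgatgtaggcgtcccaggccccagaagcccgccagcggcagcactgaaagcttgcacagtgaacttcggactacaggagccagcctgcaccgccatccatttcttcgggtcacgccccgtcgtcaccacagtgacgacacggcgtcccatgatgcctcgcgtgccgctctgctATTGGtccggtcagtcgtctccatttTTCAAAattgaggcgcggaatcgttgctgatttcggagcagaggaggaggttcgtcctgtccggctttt
Mki67: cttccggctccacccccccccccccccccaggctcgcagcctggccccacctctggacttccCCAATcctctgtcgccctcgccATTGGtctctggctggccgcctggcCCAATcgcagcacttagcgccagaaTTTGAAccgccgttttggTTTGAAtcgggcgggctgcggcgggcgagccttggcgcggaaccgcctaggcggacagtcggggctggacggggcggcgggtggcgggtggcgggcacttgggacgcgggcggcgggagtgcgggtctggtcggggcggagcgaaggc
Mcm2: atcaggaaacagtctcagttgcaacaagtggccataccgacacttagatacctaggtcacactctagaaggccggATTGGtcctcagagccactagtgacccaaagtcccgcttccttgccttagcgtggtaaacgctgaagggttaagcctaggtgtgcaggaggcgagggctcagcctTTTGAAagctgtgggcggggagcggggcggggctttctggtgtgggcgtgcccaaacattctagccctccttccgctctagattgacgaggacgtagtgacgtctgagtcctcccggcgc
Rrm2: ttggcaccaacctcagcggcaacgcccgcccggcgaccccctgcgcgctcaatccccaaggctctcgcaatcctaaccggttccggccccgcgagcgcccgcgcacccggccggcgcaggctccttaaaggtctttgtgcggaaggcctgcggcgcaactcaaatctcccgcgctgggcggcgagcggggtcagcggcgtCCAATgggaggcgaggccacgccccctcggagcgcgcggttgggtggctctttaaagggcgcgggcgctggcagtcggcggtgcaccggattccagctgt
In Prc1 and Kif11 1 CCAAT box lies upstream of 1 CHR element. Mki67 holds 3 CCAAT boxes and 2 CHR elements, Mcm2 holds 1 of each, and Rrm2 holds a CCAAT box alone. None of the 5 windows holds an E2F element of the letters searched.

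The comparison of 7 d after SNI with naive ganglia asks whether injury raises these genes. Taken as the mean of the WT and KO differences, 1 of 39 members rose and 5 fell (edgeR quasi-likelihood F test, Benjamini-Hochberg adjusted p under 0.05 over all genes tested). That is 2.56% and 12.8% of the members, where 10.8% of all genes rose and 10.3% fell. The share of members that fell is near the background and the share that rose is below it. DESeq2 called 1 member higher and 6 lower, where it called 4558 genes in either direction. In sign, 27 of 39 members were lower at 7 d, where 50.3% of all genes were. Their median log2 difference was -0.21, against 0.00 over all genes. For 35 members the upper 95% limit lay under 1 on the log2 scale, a 2-fold rise.

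Prc1 (ENSMUSG00000038943, chr7:80294450-80316259, plus strand, GRCm38), which bundles the microtubules of the central spindle between separating chromosomes, was the member that rose. Its naive levels were 4.09, 4.81, 2.87 and 3.67 CPM in the WT libraries wt_28, wt_44, wt_48 and wt_67. They were 2.93, 4.30, 3.35 and 2.58 CPM in the KO libraries ko_35, ko_39, ko_40 and ko_95. At 7 d it reached 6.69, 7.11 and 15.6 CPM in WT (wt_409_7d, wt_410_7d, wt_416_7d) and 15.4, 6.51 and 9.77 CPM in KO (ko_420__7d, ko_422_7d, ko_426_7d). All 6 injured libraries lay above all 8 naive ones, with wt_416_7d and ko_420__7d the highest. Averaged over both genotypes, the log2 difference was 1.51 ± 0.22 (SE, adjusted p = 0.000138 by edgeR). It was 1.34 ± 0.31 in WT (adjusted p = 0.0219) and 1.68 ± 0.31 in KO (adjusted p = 0.00214). The WT call ended without wt_28 (adjusted p = 0.0572 by edgeR), wt_48 (0.0652), wt_67 (0.0686) or wt_416_7d, where the difference was 0.84 (adjusted p = 0.237). Of the 8225 exon bases of Prc1, 911 are shared with Rccd1 on the other strand, and the strand setting of the counts is not given in the sources used here. Rccd1 itself was not called, with a log2 difference of 0.01 ± 0.12 (adjusted p = 0.957) and levels of 3.18 to 4.68 CPM in naive libraries.

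Mki67 (ENSMUSG00000031004, chr7:135689784-135716361, minus strand) fell at 7 d. Naive levels were 11.4, 19.5, 6.05 and 10.4 CPM in WT and 7.70, 8.56, 22.0 and 11.1 CPM in KO, in the order of libraries above. At 7 d they were 5.44, 3.13 and 7.24 CPM in WT and 8.43, 5.56 and 3.60 CPM in KO. The ranges overlapped, since wt_48 lay below ko_420__7d and wt_416_7d, and wt_44 and ko_40 stood far above the rest. The log2 difference was -1.12 ± 0.30 (SE, adjusted p = 0.0137 by edgeR). Without ko_40 and wt_44 it was -0.72 (adjusted p = 0.0464), and without ko_39, ko_40 and ko_422_7d it was -0.91 (adjusted p = 0.0633). Top2a (ENSMUSG00000020914, chr11:98992943-99024189, minus strand) did not pass the test, with naive levels of 2.61 to 7.53 CPM, 7 d levels of 1.92 to 5.77 CPM and a log2 difference of -0.15 ± 0.32 (adjusted p = 0.778), which became 0.22 without ko_40 and wt_44 (adjusted p = 0.651).

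Of the 8 genes of replication licensing and the fork, Mcm2 fell. This subunit of the helicase stood at 9.32, 9.14, 9.28 and 9.25 CPM in naive WT and at 10.5, 8.23, 10.3 and 10.8 CPM in naive KO. At 7 d it was 8.97, 7.40 and 6.70 CPM in WT and 6.20, 4.13 and 7.58 CPM in KO. Of the injured libraries wt_409_7d alone lay above the lowest naive library, ko_39. Mcm2 differed by -0.50 ± 0.13 (SE, adjusted p = 0.0113 by edgeR), and -0.49 without ko_40 and wt_44 (adjusted p = 0.0287). Mcm3, Mcm4, Mcm5, Mcm6, Cdc45 and Pcna had negative log2 differences and Mcm7 a positive one, without passing the test. Of the 4 genes that supply nucleotides, Rrm2 fell. It encodes the small subunit of ribonucleotide reductase and is made mainly in S phase. Its naive levels were 3.94, 4.57, 2.10 and 3.56 CPM in WT and 1.98, 2.29, 7.23 and 3.09 CPM in KO. At 7 d they were 2.28, 1.42 and 1.69 CPM in WT and 1.73, 2.14 and 1.80 CPM in KO, overlapping the lower naive libraries. The log2 difference was -0.96 ± 0.29 (SE, adjusted p = 0.0241 by edgeR). It was -0.60 without ko_40 and wt_44 (adjusted p = 0.0664), -0.89 without wt_410_7d (adjusted p = 0.0545) and -0.94 without wt_416_7d (adjusted p = 0.0535). Rrm1, the large subunit, was at -0.28 ± 0.10 (adjusted p = 0.0509 by edgeR). DESeq2 called it lower (-0.26, adjusted p = 0.0401). By edgeR it passed without ko_39, wt_48, ko_420__7d, ko_426_7d or wt_410_7d (adjusted p of 0.0295 to 0.0451).

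Of the 7 spindle motors and microtubule factors, Kif11 fell while Prc1 rose. Kif11, the motor that pushes spindle poles apart, also acts on microtubules in postmitotic neurons. It stood at 3.64, 4.23, 3.23 and 3.83 CPM in naive WT and at 4.82, 3.98, 5.32 and 4.20 CPM in naive KO. At 7 d it was 2.72, 2.49 and 2.93 CPM in WT and 2.74, 2.86 and 2.42 CPM in KO. Every injured library lay below every naive one. Kif11 differed by -0.62 ± 0.13 (SE, adjusted p = 0.00378 by edgeR), and it was -0.54 without ko_40 and wt_44 (adjusted p = 0.0161). Among the 11 cyclins, mitotic kinases and checkpoint genes, Aurkb fell. It encodes the kinase of the chromosomal passenger complex, and its counts were 2 to 42 per library. Naive levels were 1.50, 2.04, 0.872 and 1.12 CPM in WT and 0.897, 1.10, 2.02 and 1.61 CPM in KO, against 1.25, 0.356 and 0.539 CPM in WT and 0.649, 0.874 and 0.547 CPM in KO at 7 d. The groups overlapped through wt_409_7d and ko_422_7d. The log2 difference was -0.98 ± 0.32 (SE, adjusted p = 0.0367 by edgeR). This call ended without any 1 of 8 libraries (ko_40, ko_95, wt_28, wt_44, ko_420__7d, ko_426_7d, wt_410_7d or wt_416_7d), at log2 differences of -0.96 to -0.82 and adjusted p of 0.0589 to 0.0849. It also ended without ko_40 and wt_44 together (-0.74, adjusted p = 0.127).

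The remaining groups of members gave no call at 7 d. Cdc20 and Ube2c, which drive destruction of mitotic proteins, Cenpa, Cenpe and Cenpf of the centromere and kinetochore, and Ect2 and Anln of cytokinesis were in this set. Cenpf had the most positive difference among them, at 0.61 ± 0.28 (SE, adjusted p = 0.135 by edgeR). It passed the test without ko_40 (0.79, adjusted p = 0.044), without wt_410_7d (0.78, adjusted p = 0.0485) and without ko_40 and wt_44 (0.94, adjusted p = 0.0201). Its levels were 0.850 to 2.23 CPM in naive libraries and 0.996 to 2.69 CPM at 7 d, which overlap. Without ko_40 and wt_44 the median log2 difference of the 39 members was -0.07, and 2 members rose and 3 fell.

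**Figure D3:**
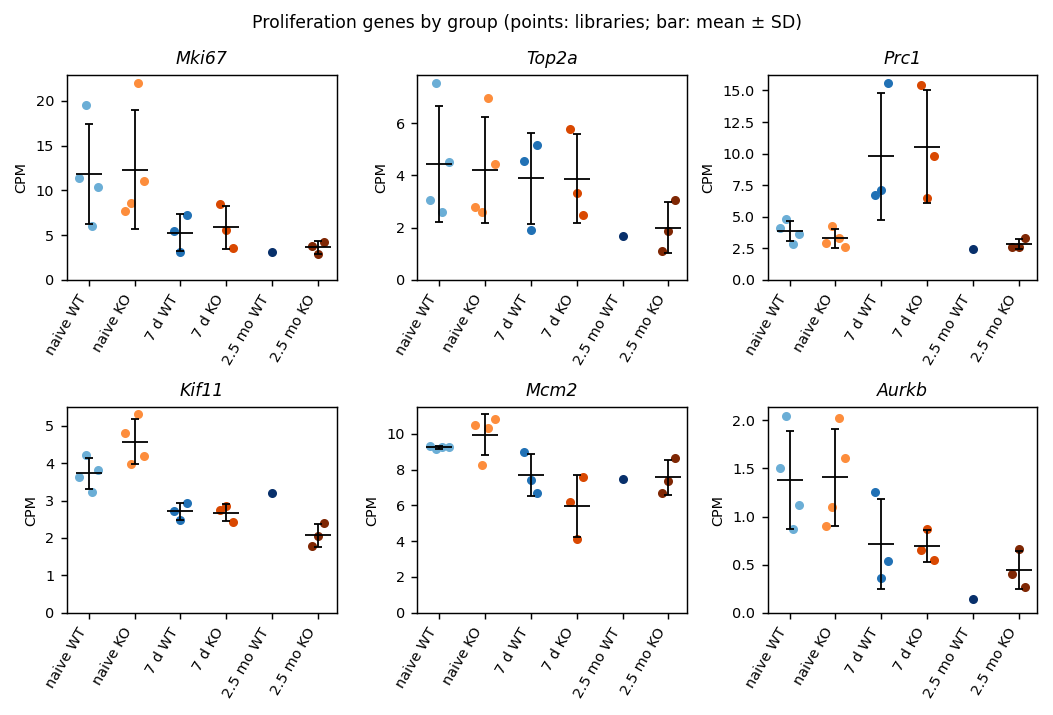
Points are libraries, horizontal bars group means and whiskers 1 SD, in CPM for Mki67, Top2a, Prc1, Kif11, Mcm2 and Aurkb. The 6 Prc1 points of 7 d lie above all naive points and those of Kif11 below all naive points, while Mki67 and Top2a overlap between 7 d and naive.

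Within each genotype fewer members passed. In WT, 1 of 39 rose at 7 d, Prc1, where 2.50% of all genes rose, and none fell, where 0.673% of all genes fell. At an unadjusted p under 0.05 by edgeR, 6 members were lower and 1 higher, 7 of 39 in all. Of all genes 16.8% had such a p in either direction. DESeq2 called 1 member higher and none lower, where it called 1105 genes in either direction. The median log2 difference of the members was -0.25. Mki67 was at -1.17 ± 0.42 (SE, adjusted p = 0.158 by edgeR) and Top2a at -0.19 ± 0.46 (adjusted p = 0.882). Bub1, a kinase of the spindle checkpoint, went from 0.957 to 1.90 CPM in naive WT to 0.498 to 0.693 CPM, a log2 difference of -1.44 (adjusted p = 0.0973 by edgeR). It passed the test without ko_422_7d (adjusted p = 0.0207), where the difference stayed at -1.44. That KO library is not among those compared here, but all groups are fitted together and it enters the estimate of the spread. In KO, Prc1 rose while Kif11 and Mcm2 fell, which is 2.56% of the members higher and 5.13% lower, where 7.61% of all genes rose and 5.89% fell. Kif11 was at -0.77 ± 0.19 (SE, adjusted p = 0.0134 by edgeR) and Mcm2 at -0.74 ± 0.18 (adjusted p = 0.0154). Mcm2 lost its call without ko_422_7d (-0.53, adjusted p = 0.0588). When only the naive and 7 d KO libraries were fitted, Kif11 was at -0.74 (adjusted p = 0.0856) and Mcm2 at -0.71 (adjusted p = 0.102). DESeq2 called 1 member higher and 3 lower in KO, where it called 3310 genes in either direction. Among the falls by DESeq2 was Mcm4 (-0.38, adjusted p = 0.0337), which was at -0.41 by edgeR (adjusted p = 0.0504). Mki67 in KO was at -1.07 ± 0.42 (SE, adjusted p = 0.1 by edgeR) and Top2a at -0.11 ± 0.46 (adjusted p = 0.899). The WT and KO differences come from separate libraries, and both enter the mean difference given above.

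The level of these genes 2.5 months after SNI was tested in KO mice. None of the 39 members rose, where 6.99% of all genes did, and 5 fell, or 12.8%, where 4.57% of all genes fell. By edgeR none was higher at an unadjusted p under 0.05. DESeq2 called none higher and 5 lower, where it called 3634 genes in either direction. The median log2 difference of the members was -0.40, against -0.02 over all genes. In sign, 33 of 39 members were lower, where 52.0% of all genes were. Among the 27 mitotic members the median was -0.68 and among the 12 S phase members -0.18. The upper 95% limit lay under 1 on the log2 scale for all 39 members. The plot of log2 differences with their intervals sets both times side by side; the naive KO libraries serve both, so the panels are not independent.

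**Figure D4:**
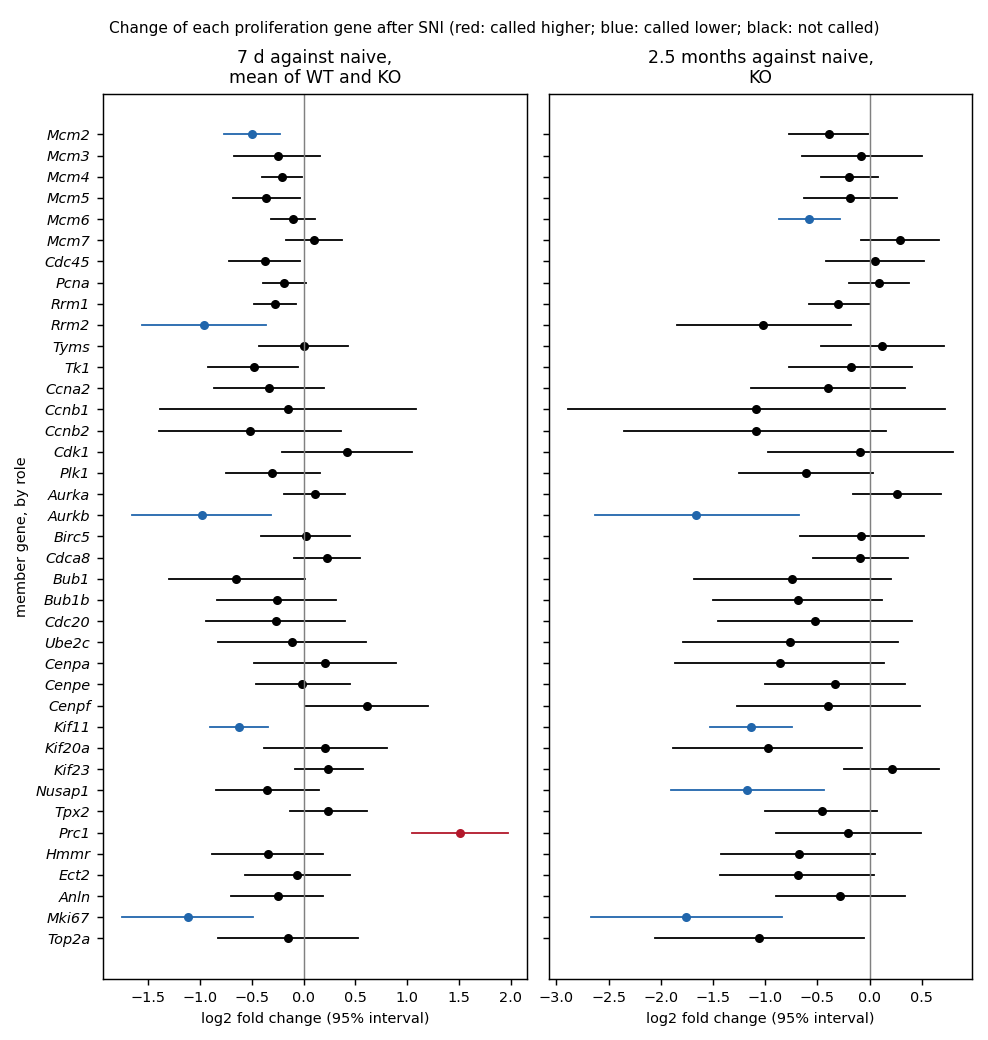
Points are log2 differences of each member from naive ganglia and lines their 95% intervals, at 7 d as the mean of WT and KO (left) and at 2.5 months in KO (right), with called members in colour. Prc1 is at 1.51 on the left and at -0.21 on the right, and Mki67, Kif11 and Aurkb are called lower on both sides.

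Mki67 stood at 3.76, 2.88 and 4.26 CPM in ko_362_2_5_m, ko_367_2_5_m and ko_378_2_5_m, below all 4 naive KO libraries at 7.70 to 22.0 CPM. The log2 difference was -1.76 ± 0.43 (SE, adjusted p = 0.0222 by edgeR). Without ko_40 and wt_44 it was -1.32 (adjusted p = 0.0438), and the call ended without ko_367_2_5_m (-1.61, adjusted p = 0.106) or ko_378_2_5_m (-1.89, adjusted p = 0.0573). Kif11 was at 1.79, 2.04 and 2.40 CPM against 3.98 to 5.32 CPM in naive KO, without overlap. Kif11 fell by 1.14 ± 0.19 on the log2 scale (SE, adjusted p = 0.0106 by edgeR), a call that ended without ko_367_2_5_m (-1.12, adjusted p = 0.0549). Without ko_40 and wt_44 Kif11 was at -1.06 and Mcm6 at -0.59 (adjusted p = 0.0468 for Mcm6). Mcm6 was at 7.46, 8.57 and 7.62 CPM against 10.7 to 12.7 CPM, also without overlap. It fell by 0.58 ± 0.14 (SE, adjusted p = 0.0214 by edgeR). That call ended without ko_35, ko_39, ko_362_2_5_m, ko_367_2_5_m or ko_378_2_5_m, at -0.64 to -0.54 and adjusted p of 0.0503 to 0.0706.

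Aurkb was at 0.405, 0.659 and 0.266 CPM at 2.5 months in KO, below the naive KO range of 0.897 to 2.02 CPM. It fell by 1.66 ± 0.46 on the log2 scale (SE, adjusted p = 0.032 by edgeR). Nusap1, which attaches spindle microtubules to chromosomes, was at 1.16, 1.32 and 2.02 CPM, below the naive KO range of 2.20 to 5.74 CPM. It fell by 1.17 ± 0.35 (SE, adjusted p = 0.0391 by edgeR). Aurkb ended without any 1 of the 4 naive or 3 injured KO libraries, at -2.05 to -1.39 and adjusted p of 0.0511 to 0.112, and Nusap1 without any of these 7 or wt_67, at -1.45 to -0.80 and adjusted p of 0.0508 to 0.152. Without ko_40 and wt_44 Aurkb was at -1.44 (adjusted p = 0.0732) and Nusap1 at -0.80 (adjusted p = 0.11). Top2a, at 1.10, 1.86 and 3.04 CPM, overlapped its naive KO range of 2.61 to 6.96 CPM, with a log2 difference of -1.06 ± 0.48 (SE, adjusted p = 0.135 by edgeR).

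From 7 d to 2.5 months in KO, Prc1 fell. It stood at 2.60, 2.64 and 3.30 CPM at 2.5 months, all below the 6.51 to 15.4 CPM of 7 d and within its naive KO range. Its log2 difference was -1.89 ± 0.35 (SE, adjusted p = 0.00384 by edgeR). None of the other members was called in either direction, where 2.14% of all genes rose and 4.33% fell between these times. DESeq2 also called Mcm6 (-0.47, adjusted p = 0.0348) and Tpx2 (-0.81, adjusted p = 0.0396), a factor that nucleates spindle microtubules. Over all genes DESeq2 called 2075 in either direction between these times. Without ko_422_7d edgeR called 4 members, with Bub1 (-1.33, adjusted p = 0.0198), the spindle motor gene Kif20a (-1.68, adjusted p = 0.00518) and Tpx2 (-0.97, adjusted p = 0.0171) added. Mki67 was at -0.69 ± 0.46 (SE, adjusted p = 0.368 by edgeR) and Top2a at -0.95 ± 0.51 (adjusted p = 0.261). The 27 mitotic members had a median of -0.63, with 26 lower in sign, and the 12 S phase members one of 0.17. Over all genes the median was -0.01 and 50.6% were lower in sign. Many members were high or low in the same libraries, so their signs are not independent.

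The lone WT library of 2.5 months, wt_376_2_5_m, is a value with no test. It held 3.07 CPM of Mki67, 1.67 CPM of Top2a, 2.44 CPM of Prc1 and 0.140 CPM of Aurkb, each below the range of the naive WT libraries. Kif11, at 3.21 CPM, lay just under the lowest naive WT library at 3.23 CPM and above the 3 KO libraries of that time. Rrm2 was at 0.279 CPM, from 4 counts, and Ect2, an activator of the cleavage furrow, at 0.209 CPM, from 3 counts. Aurka was at 11.2 CPM, above the other libraries, which ran from 3.99 to 7.33 CPM.

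Genotype was compared in naive ganglia, at 7 d, and as the difference between the genotypes in their response at 7 d. No member was called in any of these by edgeR, where 0.0263%, 0.00526% and 0.0105% of all genes were called. DESeq2 called no member, where it called 15, 21 and 2 genes in either direction. An unadjusted p under 0.05 by edgeR was found for 1, 2 and 2 of the 39 members, where 2.71%, 8.44% and 3.70% of all genes had one. In naive ganglia the median log2 difference of KO from WT was 0.04, and the 95% interval stayed under 1 for 34 and over -1 for 35 of the 39 members. Mki67 differed by 0.05 ± 0.37 (SE, adjusted p = 1 by edgeR), with an interval of -0.72 to 0.83, and Top2a by -0.08 ± 0.41, with an interval of -0.95 to 0.79. Bub1 had the smallest p. It stood at 1.70, 1.90, 1.64 and 0.957 CPM in WT and 0.803, 0.823, 1.01 and 0.922 CPM in KO, overlapping through wt_67, with a log2 difference of -0.80 ± 0.37 (SE, adjusted p = 1 by edgeR). Aurka (-0.38 ± 0.18) and Kif11 (0.29 ± 0.17) came next, also with an adjusted p of 1.

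At 7 d after SNI the median difference between KO and WT was 0.08. Mki67 differed by 0.16 ± 0.46 (SE, adjusted p = 0.93 by edgeR), with an interval of -0.80 to 1.13, and Top2a by 0.00 ± 0.50, with an interval of -1.04 to 1.05. Mcm4 stood at 15.3, 15.3 and 18.5 CPM in WT and 13.6, 10.6 and 13.1 CPM in KO, which did not overlap, a log2 difference of -0.40 ± 0.14 (SE, adjusted p = 0.562 by edgeR). Cenpe stood at 1.25, 0.925 and 1.54 CPM in WT and 2.88, 2.30 and 1.56 CPM in KO, also without overlap, at 0.86 ± 0.35 (adjusted p = 0.577). Ccnb2, the gene of cyclin B2, was at 0.142 to 1.40 CPM in WT and 0.938 to 2.38 CPM in KO, at 1.35 ± 0.66 (adjusted p = 0.592). These differences did not pass the threshold.

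The calls of Mcm2 and Kif11 in KO and not in WT do not show that the genotypes differed in response. Their interaction terms were -0.47 ± 0.26 and -0.31 ± 0.27 on the log2 scale (SE, adjusted p = 0.948 each by edgeR). That of Prc1 was 0.35 ± 0.44 and that of Mki67 was 0.11 ± 0.59, with an interval of -1.13 to 1.34. Top2a was at 0.09 ± 0.65. The smallest p belonged to Bub1, at 1.58 ± 0.62, and to Mcm4, at -0.40 ± 0.19 (adjusted p = 0.948 each). With a median SE of 0.44 over the members, the interaction is known less well than the injury response of either genotype, at 0.31.

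The rest of the cell cycle was read from lists of genes that are not members. At 7 d, as the mean of both genotypes, 10.8% of all genes rose and 10.3% fell. Of 39 other S phase genes, none rose and 3 fell in that comparison. Among the falls were Fen1, the nuclease that trims Okazaki fragments (-0.71 ± 0.21, adjusted p = 0.0214 by edgeR), and Tipin of the replication fork (-0.56 ± 0.15, adjusted p = 0.0132). The median of the list was -0.15. Of 64 other mitotic genes tested, 2 rose and 2 fell, with a median of -0.12. Kif22, a motor that moves chromosome arms, went from 3.78 to 5.34 CPM over the naive libraries to 9.82 to 12.2 CPM in WT and 11.5 to 36.2 CPM in KO at 7 d, without overlap (1.76 ± 0.21, adjusted p = 1.45e-05). Cdkn3, a phosphatase of cyclin-dependent kinases, went from 3.59 to 4.82 CPM to 7.93 to 10.5 CPM in WT and 7.04 to 16.6 CPM in KO, again without overlap (1.29 ± 0.16, adjusted p = 3.53e-05). Both also rose in each genotype alone. The falls were Ncapd2, a condensin subunit (-0.40, adjusted p = 0.0309), and Iqgap3, a scaffold protein of cell division (-0.51, adjusted p = 0.0427). The library ko_422_7d held the highest level of both Kif22 and Cdkn3, while ko_420__7d and wt_416_7d held that of Prc1.

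At 2.5 months in KO, 6.99% of all genes rose and 4.57% fell. There 2 of the 64 other mitotic genes rose and 4 fell, with a median of -0.32. Among the falls were Racgap1 (-0.82 ± 0.19, adjusted p = 0.0185 by edgeR), the partner of Ect2 in cytokinesis, Foxm1 (-1.03 ± 0.29, adjusted p = 0.0334), the transcription factor of many mitotic genes, and Ttk (-1.20 ± 0.36, adjusted p = 0.0391), a checkpoint kinase. Among the rises was Cks1b (0.84 ± 0.25, adjusted p = 0.0365), a small subunit of cyclin-dependent kinases. Of the other S phase genes 2 rose, Orc6 of the origin recognition complex (0.71 ± 0.17, adjusted p = 0.0207) and Rfc2 of the clamp loader (0.35 ± 0.09, adjusted p = 0.0285), and Dnmt1, which copies DNA methylation after replication, fell (-0.49 ± 0.15, adjusted p = 0.0436).

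Genes that commit a cell to S phase went both ways. Of 22 G1 cyclins, kinases and E2F factors, 3 rose and 4 fell at 7 d as the mean of both genotypes. Of all genes 10.8% rose and 10.3% fell there. The median log2 difference of the list was -0.06, against 0.00 over all genes. Myc, a growth factor-responsive transcription factor, rose from 14.5 to 19.2 CPM over naive libraries to 24.0 to 31.3 CPM in WT and 19.3 to 34.8 CPM in KO (0.56 ± 0.12, adjusted p = 0.0031 by edgeR). Mycn rose by 0.35 ± 0.10 (adjusted p = 0.0143). Tfdp2, the partner of E2F proteins (-0.30 ± 0.08, adjusted p = 0.00994), and E2f2, an activating E2F (-0.81 ± 0.24, adjusted p = 0.0236), fell. At 2.5 months in KO none of the 22 rose and 3 fell, where 6.99% of all genes rose and 4.57% fell. The falls were Tfdp2 (-0.44 ± 0.11, adjusted p = 0.0207), Cdc25a (-0.49 ± 0.14, adjusted p = 0.0327) and E2f8 (-2.03 ± 0.62, adjusted p = 0.0444). E2f8 is a repressor made in S phase, and it was at 0.599 to 0.867 CPM against 1.19 to 6.43 CPM in naive KO, with ko_40 the highest.

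A few inhibitors of the cell cycle rose. Of 25 such genes, 3 rose and none fell in WT at 7 d, where 2.50% of all genes rose and 0.673% fell. In KO 4 rose and none fell, where 7.61% of all genes rose and 5.89% fell. As the mean of both 6 rose and none fell, where 10.8% of all genes rose and 10.3% fell. The list as a whole was near all genes, with 14 higher and 11 lower in sign and a median log2 difference of 0.03 against 0.00. Cdkn1a, an inhibitor of cyclin-dependent kinases, went from 86.4, 84.0, 76.5 and 59.7 CPM in naive WT to 178, 182 and 306 CPM at 7 d. In KO it went from 64.0, 93.6, 113 and 87.2 CPM to 314, 308 and 223 CPM. The ranges did not overlap in either genotype, and the mean log2 difference was 1.59 ± 0.15 (SE, adjusted p = 1.88e-06 by edgeR). Gadd45a, a stress sensor that can arrest cells before mitosis, went from a mean of 23.3 CPM in naive WT and 21.7 CPM in naive KO to 83.6 to 130 CPM in WT and 74.4 to 210 CPM in KO (2.40 ± 0.19, adjusted p = 3.17e-07). Its relative Gadd45g rose by 1.93 ± 0.19 (adjusted p = 3.24e-06) and Cdkn2b, an inhibitor of the G1 kinases, by 0.71 ± 0.17 (adjusted p = 0.00746). Cdkn1a and Gadd45a are also made in injured sensory neurons, and the cells that hold these transcripts cannot be told apart here.

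At 2.5 months in KO, 6 of the 25 inhibitors rose and none fell, where 6.99% of all genes rose and 4.57% fell. The largest rise was that of Cdkn2a, the locus of INK4a and ARF, which marks senescent cells. It stood at 9.89, 13.5 and 17.3 CPM at 2.5 months against 1.23, 1.56, 1.65 and 2.35 CPM in naive KO and 1.66, 6.04 and 1.02 CPM at 7 d. Every library of 2.5 months lay above every naive and 7 d library, and the lone WT library stood at 7.40 CPM against 0.872 to 1.90 CPM in naive WT. The log2 difference from naive KO was 2.99 ± 0.43 (SE, adjusted p = 0.00483 by edgeR) and that from 7 d was 2.23 ± 0.47 (adjusted p = 0.0102). Cdkn1a, Gadd45a and Gadd45g fell between 7 d and 2.5 months, by 1.26 ± 0.23, 1.72 ± 0.28 and 1.15 ± 0.29 on the log2 scale (adjusted p = 0.00382, 0.00193 and 0.0245). Gadd45a stayed above naive KO at 2.5 months (0.98 ± 0.26, adjusted p = 0.0281), whereas Cdkn1a, at 94.8 to 135 CPM, was not called.

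**Figure D5:**
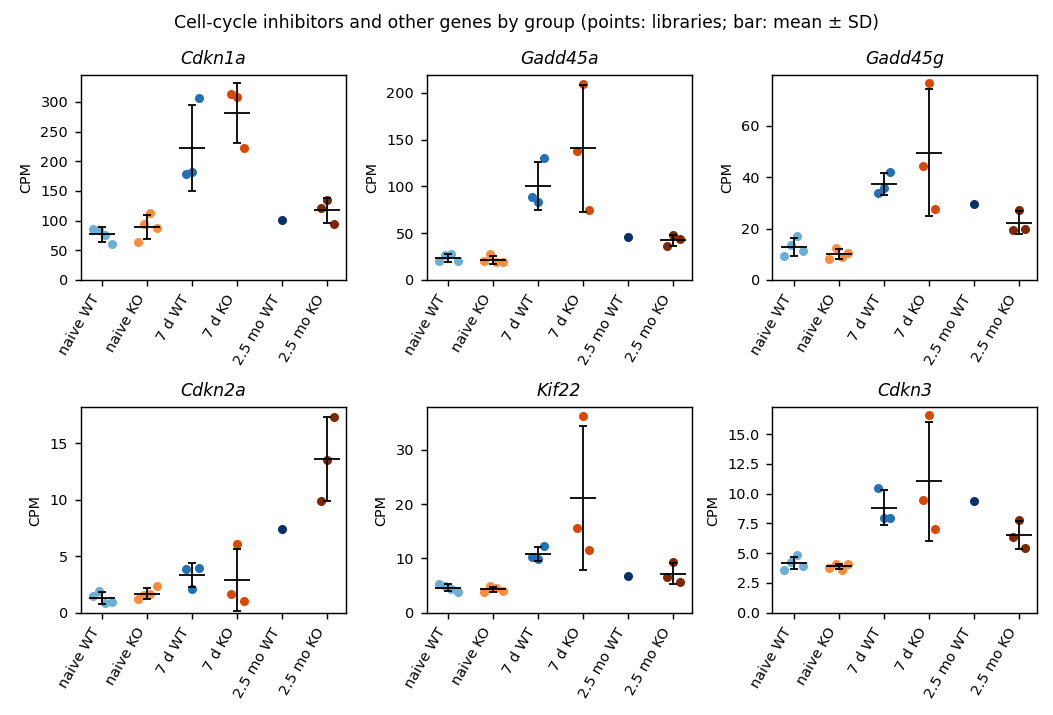
Points are libraries, horizontal bars group means and whiskers 1 SD, in CPM for the inhibitors Cdkn1a, Gadd45a, Gadd45g and Cdkn2a and for Kif22 and Cdkn3, genes of mitosis and of kinase control that are not members. Group means of Cdkn1a, Gadd45a, Gadd45g and Kif22 are highest at 7 d in both genotypes, the lone WT library of 2.5 months lies within the 7 d WT range for Cdkn3 (9.35 against 7.93 to 10.5 CPM), and Cdkn2a is highest in the KO libraries of 2.5 months.

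Markers of several cell types moved with injury beside the proliferation genes. Of all genes 10.8% rose and 10.3% fell at 7 d as the mean of both genotypes. At 2.5 months against naive KO 6.99% rose and 4.57% fell. At 7 d, as the mean of both genotypes, 11 of 14 developing neutrophil markers fell and none rose, with a median log2 difference of -2.39, and 4 of 11 red cell precursor markers tested fell and none rose. The neutrophil markers summed to 256 to 1196 CPM in naive libraries, 20.8 to 168 CPM at 7 d and 31.4 to 183 CPM at 2.5 months, with Cxcr2 at a count of 0 in 2 libraries. Of 11 endothelial and mural cell markers 7 fell, and of 8 myelinating Schwann cell markers 5. Satellite glia had 1 of 7 markers higher and 2 lower, sensory neurons 1 of 12 higher and 1 lower, and repair Schwann cells 1 of 7 higher. None of 6 fibroblast or 10 lymphocyte markers was called. The counts of these 5 cell types are small and do not stand apart from the shares of all genes. Of 15 macrophage markers, 10 rose and none fell, with a median of 1.23. The macrophage markers summed to 61.6 to 215 CPM in naive libraries, 171 to 519 CPM at 7 d and 178 to 355 CPM at 2.5 months, and none was at 0 in any library. At 2.5 months against naive KO, 6 of 14 neutrophil, 1 of 11 red cell precursor, 1 of 11 endothelial and mural and 2 of 7 satellite glia markers fell, and 4 of 15 macrophage markers rose. The libraries with the most macrophage transcripts were ko_422_7d and wt_416_7d. Their Mki67 levels were 5.56 and 7.24 CPM and their Top2a levels 3.34 and 5.16 CPM. Mki67 in ko_422_7d lay below the naive range and the other values inside the naive ranges, whose tops are ko_40 and wt_44. Top2a in wt_416_7d lay above every naive library but ko_40 and wt_44. The part of these cell types in the levels of the proliferation genes was not tested.

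Exon bases are shared with another annotated gene by 12 of the 39 members, mostly on the other strand. The largest shares with 1 other gene are those of Kif20a with Cdc23 (1271 of 4338 bases) and Ube2c with Tnnc2 (592 of 2600). Ccna2 shares 510 of 4083 bases with Exosc9, and Prc1 911 of 8225 with Rccd1. Mcm7 shares 321 of its 4426 bases with Ap4m1, and others with Cops6 (64), Mir25 (84) and Mir93 (88). Values of all 12 members are uncertain to the extent of their shared bases. Those of Ccnb1, Ccnb2, Pcna and Tyms, for which the annotation lists pseudogenes, are uncertain too.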

How the data were processed

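RNA from mouse dorsal root ganglia was measured in 18 libraries by polyA-based RNA-seq, per the labels' protocols. The authors deposited whole-number read counts per Ensembl gene, not normalized. The build was GRCm38, and the submitters' processing notes name HTSeq 0.6.1p1, STAR, DESeq2 1.10.1, cutadapt and bcl2fastq 2.17.1.14. The sources used here name neither the annotation release nor the strand setting. Symbols and exon lengths came from GENCODE M21 and promoter windows from RefSeq.

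Counts were scaled by TMM and filtered by group (filterByExpr, minimum count 10, minimum total 15), which left 19010 of 21288 genes. They were fitted with edgeR 4.0.16 in R 4.3.3 as 6 groups with 12 residual degrees of freedom (robust quasi-likelihood F test, Benjamini-Hochberg adjustment over all genes tested, calls at adjusted p under 0.05). Comparisons with naive share the naive libraries. The SE is the log2 difference divided by the square root of F, and intervals are 95%. The fit was tested on simulated data. Members and gene lists were chosen with earlier results of these data known. Mki67 and Top2a are given in every comparison, with up to 6 called members in each direction or, with no call, the 3 smallest p, and up to 4 called genes of each other list. DESeq2 1.42.0, other scalings and filters and left-out libraries were the alternatives. Leaving out ko_40 and wt_44 together was chosen after seeing the data. A called gene of the other S phase list is not reported here.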

Additional observations from a re-analysis of the deposited data

Results flagged for a closer look

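The levels of all members and of Kpna4 were checked for a library far from the others of its group in the 2 naive groups of 4 libraries. Of 80 groups checked, 3 held such a library, and chance alone flags about 1 in 20. Mcm3, a helicase subunit, stood at 4.89 CPM in ko_40 against 3.25 to 3.35 CPM in the other naive KO libraries. Ect2, the activator of the cleavage furrow, stood at 1.81 CPM in ko_40 against 1.46 to 1.51 CPM. In wt_48 Ect2 was at 0.923 CPM against 1.94 to 2.13 CPM in the other naive WT libraries.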

How the results depend on the processing

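The 16 called values of members kept their sign in all 400 alternatives run and lost the call in 52. A further 23 values that were not called were followed, those of Mki67 and Top2a and, in comparisons with no call, of the 3 members with the smallest p. Of 575 alternatives for these 23 values, none gained a call and 30 turned the sign. Top2a turned at 7 d in WT (-0.45 to 0.19 with 1 library left out), in KO (-0.52 to 0.25) and in their mean (-0.36 to 0.04). Without ko_40 and wt_44 its mean difference went from -0.15 to 0.22. Mki67 and Top2a turned between genotypes in naive ganglia (-0.38 to 0.41 and -0.43 to 0.30 with 1 library left out). They also turned in the interaction (-0.25 to 0.54 and -0.32 to 0.44), as did Mki67 between genotypes at 7 d (-0.20 to 0.46). Top2a there was at 0.00 and ran from -0.41 to 0.26. Members outside these 23 values did gain calls in some alternatives. At 7 d they were Bub1 in WT, Mcm4 in KO, and Rrm1, Cdc45 and Cenpf as the mean of both genotypes. At 2.5 months in KO they were Kif20a against naive, and Mcm6, Tpx2, Bub1 and Kif20a against 7 d. The count of 6 members called at 7 d as the mean of both genotypes, and the counts of 0 between genotypes, stayed within 1.5 times under every alternative run. In WT at 7 d the count of 1 became 2 without ko_39, ko_40 and ko_422_7d, and ran from 0 to 2 with 1 library left out. In KO at 7 d the count of 3 became 1 when only the compared groups were fitted and 1 without those 3 libraries. At 2.5 months against naive the count of 5 became 2 without those 3 libraries and 3 without ko_40 and wt_44, and ran from 0 to 6 with 1 library left out. Between 2.5 months and 7 d the count of 1 became 3 by DESeq2 and 4 without the 3 libraries, and ran from 1 to 4 with 1 library left out. The causes were not tested. No paired analysis was possible because the library numbers are not shared between groups. Counts of 2 to 42 reads limit what can be said of Aurkb, and 1 WT library at 2.5 months allows no test of genotype there.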
